A study of Mus musculus with 10 samples.

Results

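Histone peaks at 10 genes of the primitive streak and the posterior end of the gastrulating embryo were compared between mesoderm cells with and without a functional form of the blood regulator SCL. The genes were T, Eomes, Mixl1, Gsc, Evx1, Cfc1, Nodal, Lhx1, Cdx1 and Cdx2, 10 of the 22359 protein-coding genes of the annotation used (GENCODE M1, mouse build mm9). Genes were listed by their known roles and not by a measured value, though with earlier results of these data known. A gene was given the peaks that overlapped its body or came within 2500 bp of any of its protein-coding transcription start sites (TSSs), an interval called its window below. Chromatin came from mCherry-positive cells sorted on day 4 from embryoid bodies (EBs), aggregates of differentiating mouse embryonic stem (ES) cells. In the Scl:mCherry line (genotype label Scl wt, here WT), derived from J1 ES cells, mCherry was inserted into 1 Scl allele and SCL was intact. The SclΔ/Δ:mCherry line (genotype label Scl d/d, here Delta) was engineered from the first and lacked the basic helix-loop-helix (bHLH) domain of SCL on both alleles. Both lines were grown from sorted single cells, so each stands for 1 clone, and cells were sorted in both by a reporter in the Scl gene itself. Strain labels ran from C57Bl/6 X Sv129 to C57Bl/6 X Sv136, with a number that mostly rises along the list of samples, as a filled-down spreadsheet column would, and they are not taken as different strains here. ChIP-Rx, a ChIP-seq in which the sorted cells were mixed 2:1 with Drosophila S2 cells, was carried out for H3K4me3, H3K27ac, H3K27me3 and H2AK119ub. There was 1 library for each of the 4 marks in each genotype, and with no replicates no test across samples was possible.

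The primitive streak is the site where epiblast cells leave the epithelium and become mesoderm or endoderm. NODAL, a ligand of the TGF-beta family, acts there, and Cfc1 encodes CRYPTIC, a co-receptor of NODAL. WNT signalling induces the T-box gene T (Brachyury), while CDX and EVX homeodomain proteins act in the posterior body. H3K4me3 lies at the starts of active and poised genes and H3K27ac at active promoters and enhancers. H3K27me3 is laid down by Polycomb repressive complex 2 and H2AK119ub by Polycomb repressive complex 1. Promoters with both H3K4me3 and H3K27me3 are called bivalent and are common at developmental regulators that are silent but can still be induced.

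The 8 lists held between 2388 (H2AK119ub, Delta) and 16038 peaks (H3K4me3, WT), called separately in each library, and read depth cannot be read from them. Of 6 genes taken as markers of haemangioblast and blood-fated mesoderm (Kdr, Tal1, Lmo2, Gata2, Etv2 and Fli1), all 6 had H3K4me3 in both genotypes. H3K27ac was called at 5 of the 6 in WT, all but Etv2, against 20.8% of all genes. In Delta it was called at 0 of the 6, against 23.6%. Tal1 is the Scl gene itself, edited in both lines. The study lists Scl, Fli1 and Gata2 among the genes activated by SCL. What these H3K27ac calls say of cell type was not tested. Pluripotent, neural, endoderm, cardiac and paraxial markers had H3K27ac at 0 genes in both genotypes. Peaks of histone marks cannot show the bHLH deletion itself. Mixl1 and Cfc1 lie on chromosome 1, where H3K4me3 peaks of like fold enrichment (5 to 6) had a higher −log10 p than on the other autosomes, chromosome 8 aside, by 1.25 times in WT and 1.20 times in Delta. The ratio was 1.09 in both genotypes for H3K27ac (fold enrichment 3 to 5), 1.09 and 1.05 for H3K27me3 (3 to 4), and 0.986 and 1.03 for H2AK119ub (3 to 5).

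The promoters of Mixl1, Cfc1 and Evx1 are shown because these were the 3 genes with an H3K27me3 peak in WT and none in Delta. Each line gives the 250 bases before the TSS farthest 5′, on the strand of the gene, read from the mm9 genome. Capitals mark matches to any of 5 motifs searched on both strands. T-box proteins were searched with TCACACCT and FOXH1 with AATNCACA. The letters CTTTGAT were used for TCF/LEF proteins. For GATA factors the letters were AGATAA. An E-box of the type bound by SCL was searched as CAGATG. No matches overlapped one another. Mixl1 was read from chr1:182627166-182627415 on the minus strand, Cfc1 from chr1:34592243-34592492 on the plus strand, and Evx1 from chr6:52263242-52263491 on the plus strand.
Mixl1: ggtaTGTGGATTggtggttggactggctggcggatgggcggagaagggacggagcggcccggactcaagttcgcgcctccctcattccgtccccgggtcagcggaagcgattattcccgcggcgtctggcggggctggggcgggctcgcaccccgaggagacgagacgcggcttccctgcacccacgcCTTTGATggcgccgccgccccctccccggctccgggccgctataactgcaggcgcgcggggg
Cfc1: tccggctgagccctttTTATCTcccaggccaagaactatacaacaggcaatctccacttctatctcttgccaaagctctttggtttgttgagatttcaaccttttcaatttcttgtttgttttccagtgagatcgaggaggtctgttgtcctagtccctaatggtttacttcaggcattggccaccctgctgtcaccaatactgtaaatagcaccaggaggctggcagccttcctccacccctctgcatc
Evx1: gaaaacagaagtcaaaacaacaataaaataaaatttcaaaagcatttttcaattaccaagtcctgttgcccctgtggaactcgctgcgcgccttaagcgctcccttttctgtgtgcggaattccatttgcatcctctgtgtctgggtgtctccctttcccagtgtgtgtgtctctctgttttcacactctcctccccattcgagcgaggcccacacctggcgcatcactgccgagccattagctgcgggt

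The Mixl1 promoter held a FOXH1 match 246 to 239 bases before the start and a TCF/LEF match 62 to 56 bases before it. FOXH1 is the DNA-binding partner of the SMADs activated by NODAL, and TCF/LEF proteins bind DNA for WNT signalling. With 31 CpG dinucleotides the Mixl1 stretch had more than 94.0% of the 22354 promoters of protein-coding genes read in the same way, whose median was 9. Cfc1 had 2 CpG and a GATA match 234 to 229 bases before the start, and Evx1 had 10 CpG and no match. Among the other genes, an E-box match lay in the Gsc promoter and a TCF/LEF match in that of Cdx1 129 to 123 bases before it. Promoters holding at least 1 match made up 0.962% of all for the T-box letters, 2.9% for FOXH1, 3% for TCF/LEF, 9.3% for GATA and 12.7% for the E-box. No binding of these factors was measured here.

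In WT cells all 10 genes had an H3K27me3 call in their window and none had an H3K27ac call there. H3K27me3 was called at 10 of 10 in WT, against 36.7% of all protein-coding genes, and at 7 in Delta, against 34.6%. Mixl1, Evx1 and Cfc1 were the 3 genes called in WT only, a state held by 7.08% of all genes and by 19.3% of genes called in WT. Since all 10 were called in WT, none could be called in Delta only, a state held by 4.99% of all genes. In the 10 windows together H3K27me3 covered 50016 bp in WT against 40456 bp in Delta, a ratio of 0.809, beside 1.00 over all genes. Evx1 held most of this difference, since the ratio was 0.901 without it and between 0.761 and 0.832 with any other gene left out. With all 10 genes, the ratio was 0.930 when only peaks with a −log10 q of at least 3 were taken.

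H3K27ac was called at 0 of the 10 genes in WT, against 20.8% of all genes, and at 2 in Delta, Mixl1 and Cfc1, against 23.6%. Calls in Delta only were found at 6.61% of all genes and calls in WT only at 3.84%. H3K4me3 was called at 9 genes in each genotype, against 61.9% of all genes in WT and 61.4% in Delta. Cdx1 had it in WT only, as did 1.21% of all genes, and Cfc1 in Delta only, as did 0.716%. H2AK119ub was called at 7 genes in WT, against 10.8% of all genes, and at 5 in Delta, against 5.7%. The H2AK119ub calls of T, Nodal and Cdx1 were in WT only, a state found at 5.91% of all genes, and that of Mixl1 was in Delta only, as at 0.832%. In all, 11 calls over the 4 marks were in 1 genotype only, and at a −log10 q of at least 3 only the WT H3K27me3 call at Mixl1 was left of them. A missing call says that a region did not reach the limit of the list, not that the mark was absent.

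**Figure D1:**
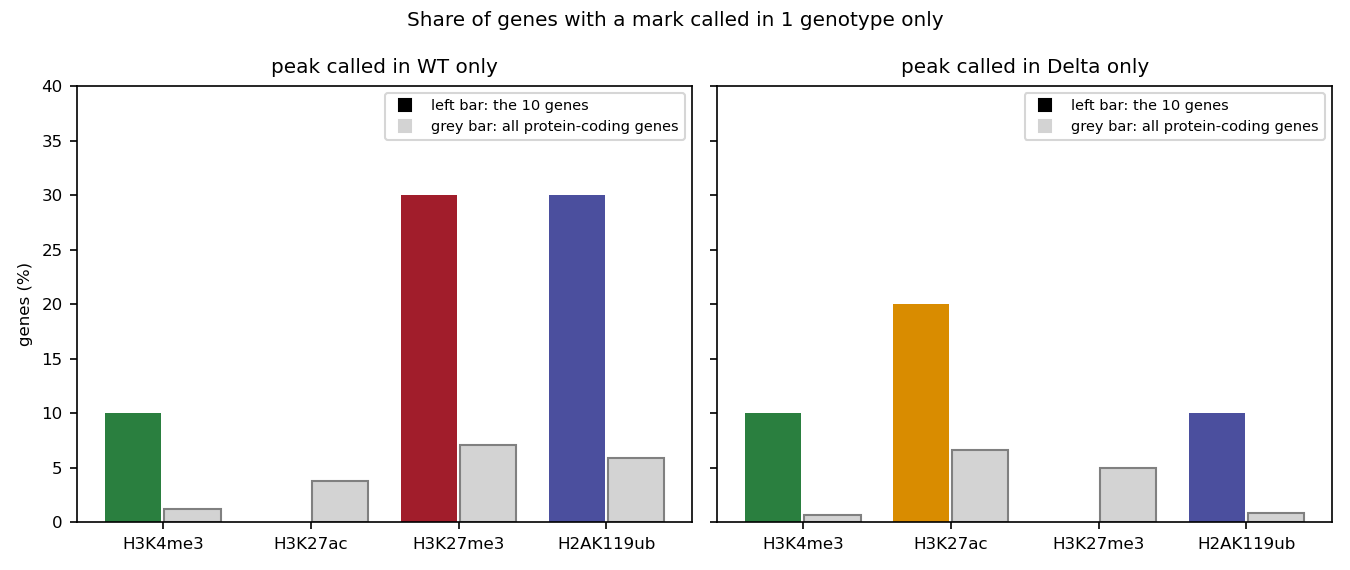
Share of genes (%, vertical axis) with a mark called in WT only (left) or in Delta only (right), for the 10 genes (coloured bars) and for all 22359 protein-coding genes (grey bars), with 1 library per mark and genotype. H3K27me3 was called in WT only at 3 of the 10 genes and H3K27ac in Delta only at 2. The opposite call was not possible for either mark, since WT had H3K27me3 called at all 10 genes and H3K27ac at 0.

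H3K4me3 covered 22069 bp of the 10 windows in WT against 28464 bp in Delta, a ratio of 1.29. Over all genes the same ratio was 0.910, so the list as a whole stood on the other side of 1. With 1 gene left out at a time the ratio of the list lay between 1.20 (without Evx1 or Cfc1) and 1.37 (without Eomes). For H2AK119ub the sums were 16521 bp in WT against 7290 bp in Delta, a ratio of 0.441 beside 0.522 over all genes. When the same number of top peaks was taken from each H2AK119ub list this ratio became 1.22, beside 0.825 over all genes, so its direction at these genes depends on that choice. The windows of the 10 genes were shorter than those of most genes, with a median of 9.906 kb against 17.906 kb.

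**Figure D2:**
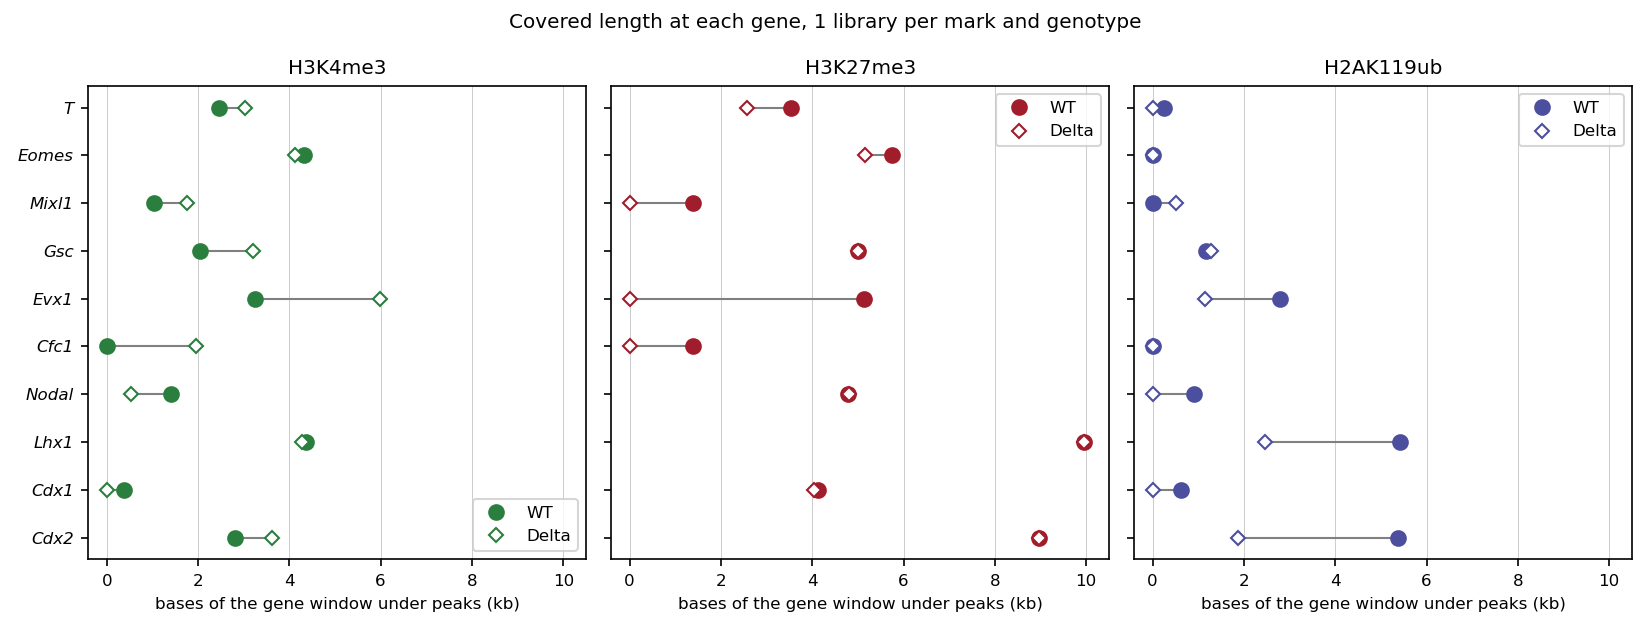
Bases of each gene window under peaks (kb, horizontal axis) in WT (filled circles) and Delta (open diamonds) for H3K4me3, H3K27me3 and H2AK119ub, with a line joining the 2 libraries of a gene. Evx1 shows the widest gaps for H3K4me3 (3253 bp in WT, 5978 bp in Delta) and H3K27me3 (5133 bp and 0 bp), while H3K27me3 filled the windows of Gsc, Lhx1 and Cdx2 in both.

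Mixl1 (ENSMUSG00000026497.7) encodes a paired-type homeodomain protein of the streak and early mesendoderm. Its body spans 182623174 to 182627165 of chromosome 1, minus strand. In WT its start lay under an H3K27me3 peak of 1397 bp, from 182626340 to 182627736, with a fold enrichment of 3.66 and a −log10 q of 4.47. No Delta H3K27me3 peak came nearer than 28148 bp to it. An H3K4me3 peak of 1026 bp (182626441 to 182627466) lay wholly within the WT H3K27me3 peak. In Delta the H3K4me3 peak was 1753 bp long, from 182625858 to 182627610, and reached farther on both sides, from 445 bp before the TSS to 1307 bp into the gene. The fold enrichment of these H3K4me3 peaks was 5.81 in WT and 5.59 in Delta, so that the longer peak was not the one with the higher enrichment. An H3K27ac peak of 406 bp lay over the TSS in Delta, from 182627080 to 182627485, and the nearest WT peak of this mark was 28752 bp away. It was a weak call, with a fold enrichment of 3.25, higher than only 0.342% of its list, and a −log10 q of 1.59. A Delta H2AK119ub peak of 519 bp lay upstream, from 182627977 to 182628495, outside the H3K4me3 peak, and also had a low −log10 q of 1.51. Every base of the promoter stretch printed above lay under H3K4me3 in both genotypes, under H3K27me3 in WT and under H3K27ac in Delta.

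Evx1 (ENSMUSG00000005503.8), which encodes an even-skipped type homeodomain protein of the posterior streak, spans 52263492 to 52268372 of chromosome 6, plus strand. Its WT H3K27me3 peak of 5133 bp ran from 52262576 to 52267708 across the TSS and most of the gene, with a fold enrichment of 3.49 and a −log10 q of 2.98. The nearest Delta H3K27me3 peak was 2900 bp away, downstream of the gene, from 52270609 to 52274727. A WT peak at this downstream place, from 52270148 to 52274812, covered it whole, so H3K27me3 was called there in both genotypes and over the gene in WT alone. H3K4me3 at the start was 3252 bp long in WT, from 52262462 to 52265713, and a further WT peak of 190 bp touched the window by 1 bp. In Delta 1 peak of 6660 bp, from 52260310 to 52266969, joined both places and was longer than 99.9% of the Delta H3K4me3 list. It covered 81.0% of the Evx1 window, against 44.1% in WT, and 99.9% of the genes with H3K4me3 in Delta had a smaller share. The lincRNA 5730457N03Rik runs on the other strand through this window, and the peaks cannot be assigned to one of these 2 genes. H2AK119ub covered 2797 bp of the window in 2 WT peaks and 1158 bp in 1 Delta peak, from 52266235 to 52267392, inside the gene.

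Of the T-box genes, T (ENSMUSG00000062327.3), which is required for mesoderm formation, spans 8627288 to 8635361 of chromosome 17, plus strand. H3K4me3 ran from 8625293 to 8627756 in WT (2464 bp) and from 8625302 to 8628327 in Delta (3026 bp). The upstream edges were 9 bp apart and the Delta peak went farther into the gene. The H3K27me3 peak over the TSS was shorter in Delta, with 2562 bp (8625763 to 8628324) against 3533 bp in WT (8625235 to 8628767). In Delta 464 bp of the H3K4me3 lay outside H3K27me3, nearly all of them at the upstream edge. In WT no H3K4me3 base of T lay outside it. A WT H2AK119ub peak of 250 bp lay in an intron, from 8628389 to 8628638, and was not called in Delta. Eomes (ENSMUSG00000032446.8), needed for the exit of cells from the streak and for definitive endoderm, spans 118387330 to 118395250 of chromosome 9, plus strand. There H3K4me3 was 4324 bp long in WT and 4117 bp in Delta, and H3K27me3 6519 bp and 5793 bp. Both marks spanned the TSS in both genotypes, and the fold enrichment of H3K4me3 was 6.80 in WT and 4.59 in Delta. No H2AK119ub peak lay in the Eomes window in either genotype.

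**Figure D3:**
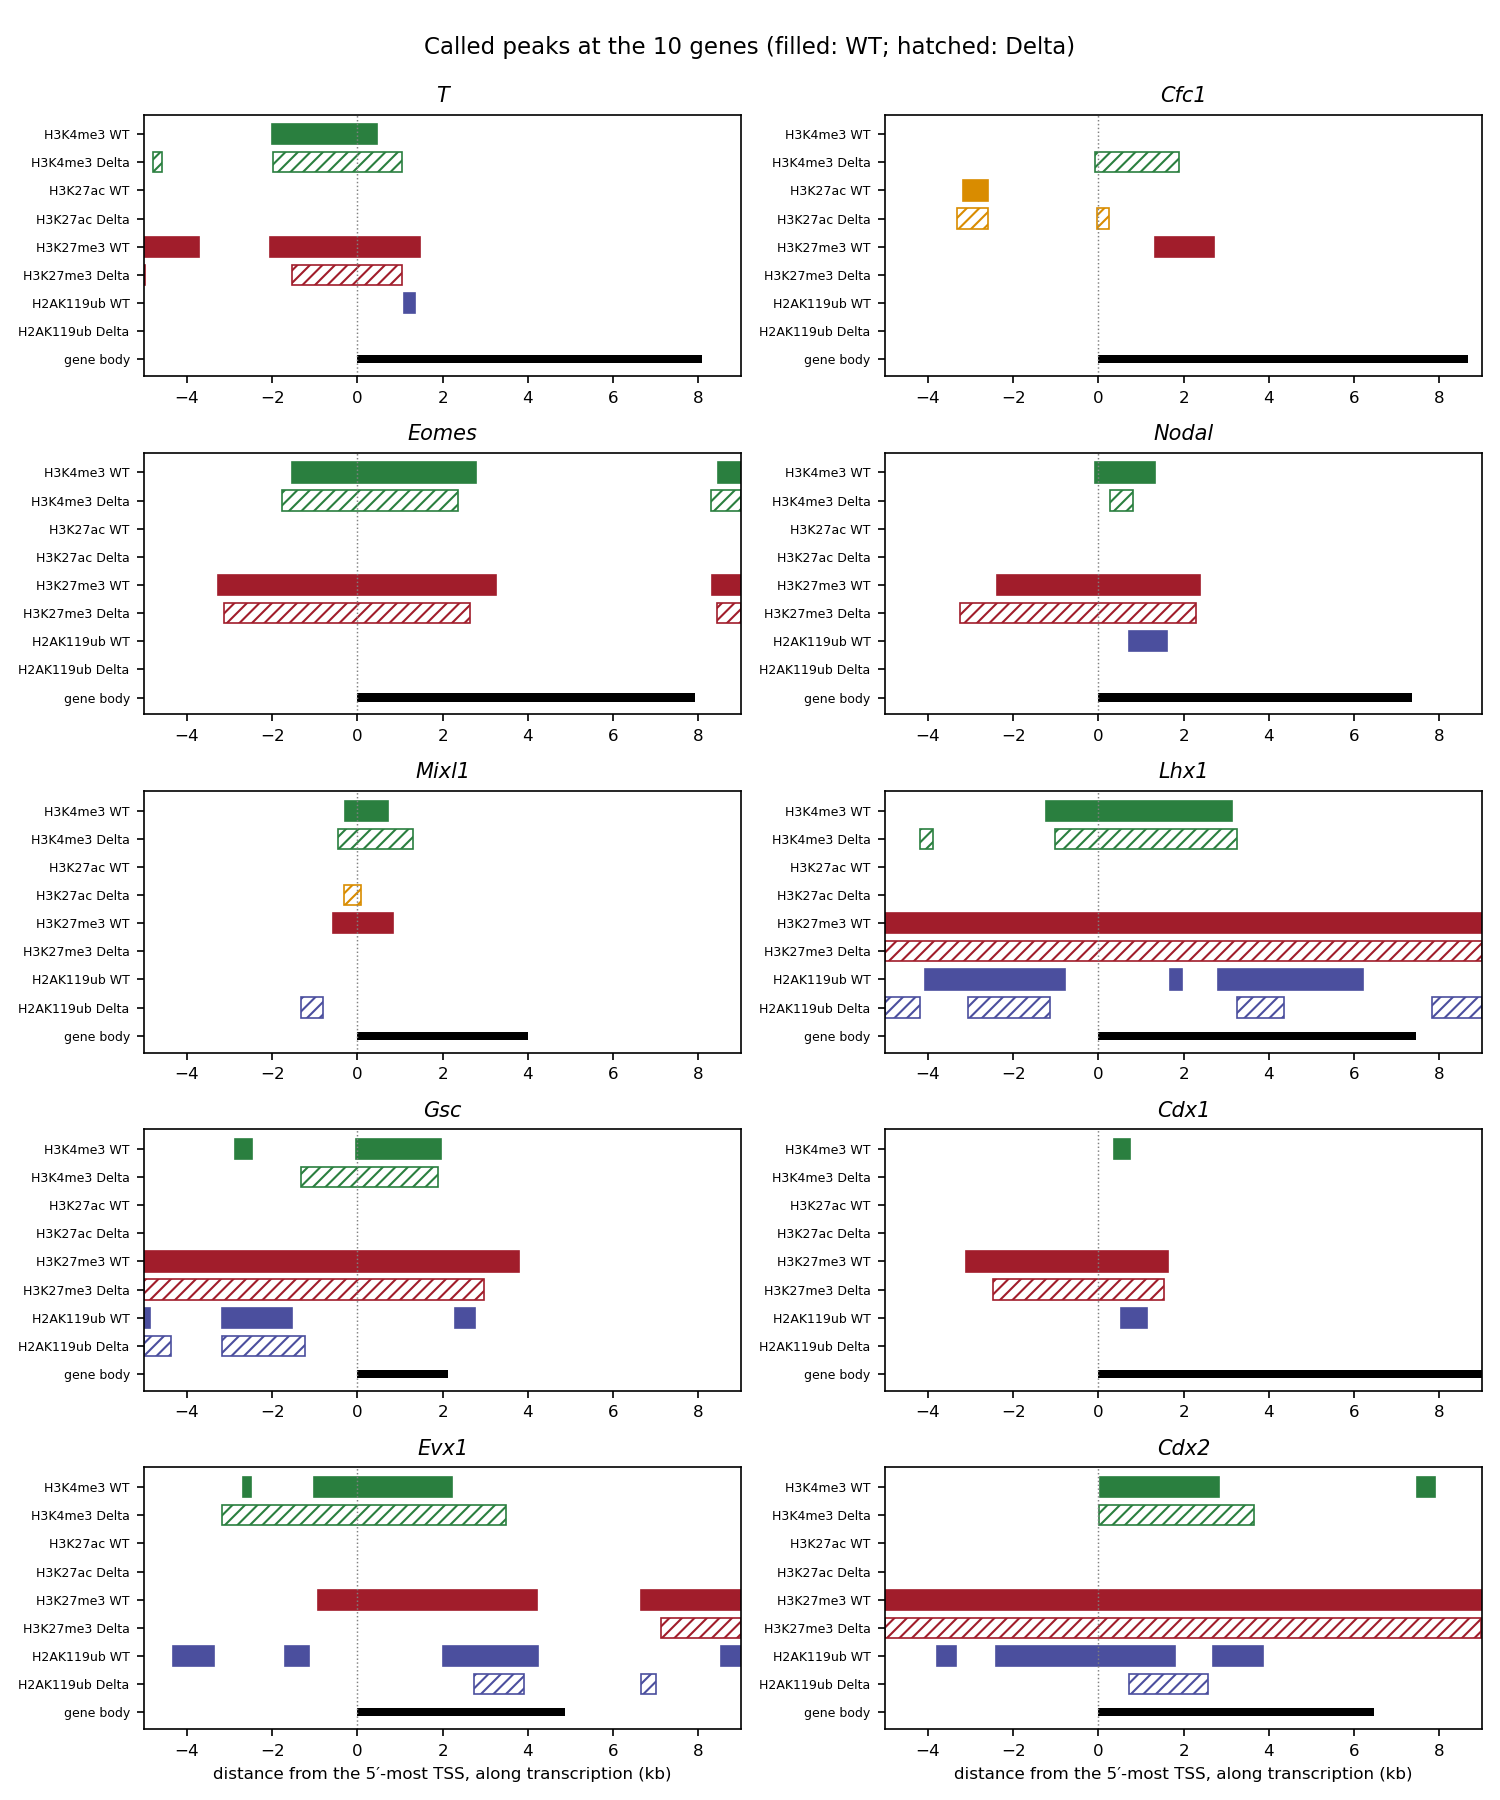
Called peaks along each of the 10 genes, by distance from the TSS farthest 5′ in the direction of transcription (kb, horizontal axis), with 1 row per mark and genotype, filled bars for WT, hatched bars for Delta and a black bar for the gene body; bars are clipped at −5 and +9 kb. The H3K27me3 row of Delta is empty at Mixl1 and Cfc1 and empty over the gene at Evx1, and H3K27ac bars reach a TSS at Mixl1 and Cfc1 alone, in Delta.

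Gsc and Lhx1 encode homeodomain proteins of the anterior streak and the organiser. Gsc (ENSMUSG00000021095.3) spans 105709419 to 105711537 of chromosome 12, minus strand. H3K27me3 covered 100% of its window in both genotypes, in peaks of 17880 bp in WT and 11031 bp in Delta. Beyond the window a second Delta peak of 8661 bp, from 105721139 to 105729799, lay upstream. The WT peak ran to 105725630, so it covered the gap between the Delta peaks and the first part of the second one. H3K4me3 at the Gsc start was 2007 bp long in WT and 3194 bp in Delta. In WT it ended 43 bp upstream of the TSS, and in Delta 1314 bp upstream, where it met the start of the divergent coding gene Gm10000. H2AK119ub covered 1172 bp of the window in WT against 1278 bp in Delta. Lhx1 (ENSMUSG00000018698.7), at 84331479 to 84338923 of chromosome 11, minus strand, also had its whole window under H3K27me3 in both, in peaks of 19601 bp and 18926 bp. Its H3K4me3 peaks were 4363 bp and 4278 bp long. H2AK119ub covered 5410 bp of the Lhx1 window in 3 WT peaks and 2469 bp in 2 Delta peaks, and none of these crossed the TSS farthest 5′. The lincRNA 1500016L03Rik starts within the Lhx1 window on the other strand.

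The 2 signalling genes differed from each other. Nodal (ENSMUSG00000037171.6), at 60880720 to 60888086 of chromosome 10, plus strand, encodes the ligand. H3K4me3 there was 1418 bp long in WT, from 60880636 to 60882053, and 538 bp in Delta, from 60881000 to 60881537. The Delta peak lay within the WT peak and began 280 bp past the TSS, so that the TSS was under H3K4me3 in WT only. Both were of like fold enrichment, 4.55 and 4.71. H3K27me3 spanned the Nodal TSS in both, in peaks of 4772 bp and 5541 bp with fold enrichments of 6.95 and 7.72. A WT H2AK119ub peak of 903 bp lay in an intron, from 60881431 to 60882333.

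Cfc1 (ENSMUSG00000026124.3) encodes a co-receptor of NODAL and spans 34592493 to 34601156 of chromosome 1, plus strand. It had 1 call of any mark in WT, an H3K27me3 peak of 1390 bp from 34593817 to 34595206. This peak began 1324 bp past the TSS, lay over intron and coding exon bases, and had a fold enrichment of 3.16 and a −log10 q of 2.16. In Delta no H3K27me3 peak lay in the window and the nearest was 40184 bp away. Delta had an H3K4me3 peak of 1953 bp across the TSS, from 34592423 to 34594375, with a fold enrichment of 3.42. It also had an H3K27ac peak of 299 bp, from 34592451 to 34592749, with a fold enrichment of 3.56. Both were weak calls, with fold enrichments higher than only 4.64% (H3K4me3) and 3.91% (H3K27ac) of their lists. Their −log10 q was 2.90 and 1.96. The last 70 bases of the Cfc1 promoter printed above lay under H3K4me3 and the last 42 under H3K27ac. No WT H3K4me3 peak came nearer than 41394 bp. An upstream H3K27ac peak just outside the window was called in both genotypes, from 34589304 to 34589896 in WT and from 34589183 to 34589910 in Delta. The H3K27ac found in Delta alone was thus that at the TSS. Prss40 overlaps the 3′ end of Cfc1 on the other strand, away from these peaks.

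Of the caudal-type genes, Cdx1 (ENSMUSG00000024619.8), a target of WNT and retinoid signalling, spans 61178516 to 61195853 of chromosome 18, minus strand. H3K27me3 spanned its TSS in both genotypes, in peaks of 4747 bp in WT and 4031 bp in Delta, with fold enrichments of 8.36 and 10.3. A single WT H3K4me3 peak of 376 bp lay past the TSS, with a −log10 q of 2.38, and had no counterpart in the Delta window. H2AK119ub was also called in WT only, over 617 bp, and 213 bp of it lay under that H3K4me3 peak. Cdx2 (ENSMUSG00000029646.3), which patterns the posterior body and the trophectoderm, spans 148112381 to 148118846 of chromosome 5, minus strand. Its H3K27me3 peaks, 25518 bp in WT and 24277 bp in Delta, were the longest at any of the 10 genes and filled the window. H3K4me3 was 2802 bp long in WT and 3627 bp in Delta, and both peaks began within 34 bp of the TSS inside the gene. Their fold enrichment was 3.82 in WT, higher than 14.8% of its list, and 6.94 in Delta, higher than 67.0%. The list medians were 6.42 in WT and 6.01 in Delta, so Cdx2 stood below the median in WT and above it in Delta, the reverse of Eomes. H2AK119ub covered 5372 bp of the Cdx2 window in WT, across the TSS, and 1866 bp in Delta, inside the gene.

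Set side by side, 5 of the 8 genes with H3K4me3 in both genotypes had more covered bases in Delta, against 32.8% of all genes called in both. These were T, Mixl1, Gsc, Evx1 and Cdx2. The ratio Delta over WT was 1.84 at Evx1, 1.71 at Mixl1 and 1.56 at Gsc, higher than 98.7%, 98.2% and 97.5% of the 13570 genes called in both. A ratio of at least 1.5 was found at 3.04% of those genes. Cdx2 had 1.29 and T 1.23, while Lhx1 (0.981) and Eomes (0.952) lay nearer the median of all genes, 0.928. Nodal went the other way, with 0.379, higher than 0.98% of genes, and a ratio at least 1.5 times below 1 was found at 10.1%. Of the other genes in the pathway lists described below with H3K4me3 in both genotypes, most also had more covered bases in Delta. Their ratios ran from 0.488 at Hhex to 2.92 at Wnt3a, so longer H3K4me3 was not particular to the 10 genes.

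**Figure D4:**
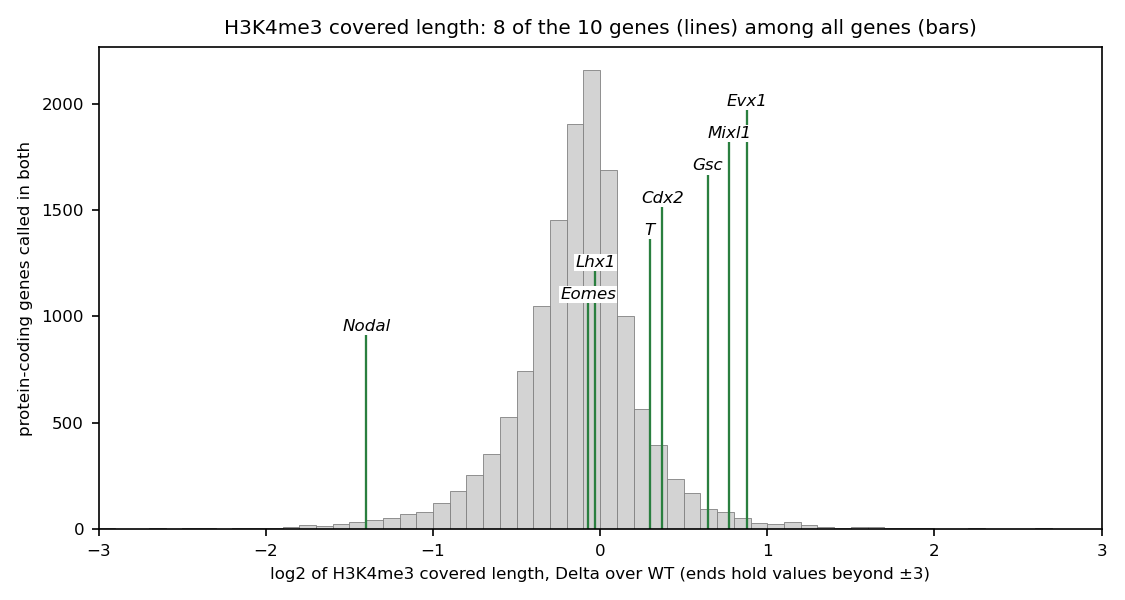
Number of protein-coding genes (vertical axis, grey bars) by the log2 ratio of H3K4me3 covered length, Delta over WT (horizontal axis), for the 13570 genes called in both, with a green line at each of the 8 genes described; line heights only separate the names. Mixl1, Gsc and Evx1 lie in the right tail, with log2 ratios of 0.77, 0.64 and 0.88, and Nodal in the left tail at −1.40.

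Bivalent marking, taken as at least 1 base shared by an H3K4me3 and an H3K27me3 peak of the same genotype in the window, was found at 9 genes in WT and 6 in Delta. Over all genes it was found at 32.3% in WT and 29.6% in Delta. Cfc1 was the exception in WT, while T, Eomes, Gsc, Nodal, Lhx1 and Cdx2 had it in Delta. In WT all H3K4me3 bases lay under H3K27me3 at 8 of these 9 genes, and 96.5% of them at Evx1. Of all genes with both marks in WT, 33.6% had their H3K4me3 wholly under H3K27me3, and the median gene had 48.9%. In Delta H3K4me3 lay wholly under H3K27me3 at Eomes, Gsc, Nodal, Lhx1 and Cdx2 and to 84.7% at T, where the median over all genes was 53.4%. At Gsc, Lhx1 and Cdx2 this could not be otherwise in either genotype, since H3K27me3 filled their windows. Mixl1 and Evx1 kept H3K4me3 in Delta without H3K27me3, and Cdx1 kept H3K27me3 without H3K4me3. Of the 7223 genes bivalent in WT, 19.4% had H3K4me3 without H3K27me3 in Delta and 1.66% the reverse, so 2 of 9 is near the share over all genes. H3K27ac shared no base with H3K27me3 at the 10 genes in either genotype, against 9.86% of all genes in WT and 9.33% in Delta. The calls given above already fixed this outcome, so it does not show that the 2 marks avoid each other. In WT H3K27ac was called at 0 of the 10 genes. In Delta it was called at Mixl1 and Cfc1 alone, where no H3K27me3 was called.

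H2AK119ub lay within H3K27me3 at most of these genes, as over all genes. At T, Gsc, Nodal, Lhx1, Cdx1 and Cdx2 every H2AK119ub base in the WT window lay under H3K27me3, and at Evx1 79.0%. Of all genes with both marks, 66.4% had their H2AK119ub wholly under H3K27me3 in WT and 87.9% in Delta. In Delta this held for Gsc, Lhx1 and Cdx2, whose windows H3K27me3 filled in both genotypes, so it could not be otherwise there. At Mixl1 and Evx1 no H3K27me3 was called in the Delta window, so the Delta H2AK119ub peaks there could only lie outside it. Across the genome 5.32% of Delta H2AK119ub peaks and 25.2% of WT ones had no H3K27me3. Of the 4 genes called in both genotypes, Evx1 (0.414), Lhx1 (0.456) and Cdx2 (0.347) had ratios of covered length at least 1.5 times below 1, as did 47.9% of all genes called in both, whose median ratio was 0.690. With both lists limited to their 2388 top peaks, Lhx1 was still called in both (0.482), while Gsc, Evx1 and Cdx2 were called in Delta only. Under that setting the ratio of summed lengths over all genes was 0.825 and 37.3% of genes called in both had a ratio at least 1.5 times below 1. The shorter H2AK119ub of Evx1 and Cdx2 in Delta thus did not hold when the same number of top peaks was taken from each list.

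One combination was noticed after the values of these genes were seen. H3K27me3 in WT only, together with H3K4me3 called in Delta only or at least 1.5 times longer there, was found at 25 of all genes (0.112%), and Mixl1, Evx1 and Cfc1 were 3 of them. With H3K27ac in Delta only as a further condition, 4 genes were left (0.0179%), Mixl1, Cfc1, Mdk and Pdlim4. Mdk encodes the growth factor midkine. Its window had H3K27me3 over 394 bp in WT, H3K27ac over 1570 bp in Delta, and H3K4me3 over 1858 bp in WT and 3428 bp in Delta. Since Mixl1 and Cfc1 are both on chromosome 1, its genes were counted alone. Of its 1238 genes, 6.87% had H3K27me3 in WT only and 7.67% H3K27ac in Delta only, close to the 7.08% and 6.61% of all genes. H3K4me3 in Delta only was called at 0.808% of them, against 0.716% of all genes. H2AK119ub in Delta only was called at 1.86%, a higher share than the 0.832% of all genes.

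Other genes of these pathways were taken from 3 lists of 37 genes in all. In the list of NODAL signalling, with another co-receptor, ligands, antagonists, receptors, convertases and SMADs (15 genes), H3K4me3 was called at 10 in both genotypes and at none in 1 alone. H3K27me3 was called at 8 in WT and 10 in Delta. It was found in WT only at Smad2 (524 bp) and in Delta only at Furin (862 bp), Gdf1 (230 bp) and Smad3 (302 bp), the opposite of Cfc1 at 3 of these 4. Foxh1, whose product works with the SMADs, had H3K27ac in WT only (749 bp), while Acvr2a (222 bp) and Smad3 (2038 bp) had it in Delta only. Tdgf1, which encodes CRIPTO, the nearest relative of CRYPTIC, had H3K27me3 over 2581 bp in WT against 1397 bp in Delta and no H3K4me3 in either. H2AK119ub was called in WT only at Lefty2, an inhibitor of NODAL, and in Delta only at Pcsk6, a convertase. Cer1, a secreted NODAL antagonist, had no call of any mark.

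Among 15 further genes of the streak and nascent mesoderm, 13 had H3K4me3 in both genotypes. H3K27me3 was called at 12 of them in WT and 13 in Delta, and Snai1, a driver of the epithelial to mesenchymal transition, had it in Delta only (423 bp). H3K27ac was called at 1 gene, Hhex, in WT only (545 bp), and H2AK119ub at 10 in WT and 8 in Delta, with Wnt3 and Chrd in WT only. Msgn1, a regulator of presomitic mesoderm, had no call of any mark. Of 7 further posterior genes, 7 had H3K27me3 in WT and 6 in Delta, Wnt8a being called in WT only (826 bp). H3K4me3 was called in WT only at Evx2 (1327 bp), the relative of Evx1 beside the Hoxd genes, and in Delta only at Cdx4 (199 bp), the third caudal-type gene. None of the 7 had H3K27ac, and Nkx1-2 had H2AK119ub in WT only (554 bp). Over the 37 genes H3K27me3 was called in WT only at 2 and in Delta only at 4, and the shares over all genes were 7.08% and 4.99%. The difference between these lists and the 10 genes was not tested.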

How the data were processed

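Per the labels and the study's methods, the authors aligned reads to mm9 (mouse) and dm3 (Drosophila) and called broad peaks with MACS2 2.0.10 in each library against the input of its genotype. Bowtie, Trim Galore, SAMtools and bedtools are also named in the submitters' processing notes. Libraries were not pooled, and the spike-in factor was applied to tag densities and not to peak calls, so lists cannot show a change in the total level of a mark. Each deposited list gives the position of a peak, its fold enrichment (a ratio made by the authors), the −log10 of its p and q as deposited, and a score, which the authors' caller set to 10 times the −log10 q and which was not used. The 2 input libraries were not analysed here. Lists start at a −log10 q of about 1.3, and depth cannot be read from them.

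Overlaps and covered bases were computed in Python 3.11.15 (pandas 2.3.3, numpy 2.4.6). They were tested on simulated lists, where 0 of 1600 values for 200 genes differed from a base-by-base count, and checked with bedtools 2.31.1, where 0 of 80 values differed. Coordinates are 1-based on mm9 (NCBIM37). Genes on the mitochondrial chromosome were left out, and promoter counts leave out 5 genes more. Covered length counts bases of the window under peaks, and a ratio of at least 1.5 either way was taken as a difference in length. All 10 genes were named, and other pathway genes were named where a mark was called in 1 genotype only or no mark was called. Tdgf1, Wnt3a, Mdk and Pdlim4 were added after their values were seen. The genes, lists, motifs and markers were chosen with earlier results of these data known. The marker list held 21 genes, of which Sox1 was not in the annotation used. The alternatives limited peaks to those with a −log10 q of at least 3 or with 3-fold enrichment or more, or used the same lowest −log10 p in both lists of a mark, the same number of top peaks, a TSS distance of 1000 bp, no gene body, 50% of the peak inside the window, and joining of peaks up to 3000 bp apart.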

Additional observations from a re-analysis of the deposited data

How the results depend on the processing

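The 8 alternatives were run on 15 counts and ratios and on 11 calls in 1 genotype only. At a −log10 q of at least 3, genes with H3K27ac in Delta went from 2 to 0, those with H2AK119ub in WT from 7 to 0 and in Delta from 5 to 0, and 1 of the 11 calls was left, H3K27me3 in WT at Mixl1. With the same number of top peaks per list, genes with H3K27ac in Delta went to 1, genes with H2AK119ub in WT to 3, and the H2AK119ub ratio from 0.441 to 1.22, a change of direction, with Gsc, Evx1 and Cdx2 then called in Delta only. That setting kept 9 of the 11 calls, without H3K27ac at Mixl1 and H2AK119ub at Nodal, and each of the other 6 settings kept 11. No paired analysis was possible because each mark and genotype had 1 library. No H2AK119ub ratio could be had at a −log10 q of at least 3, nor any H3K27ac ratio, since WT was at 0.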

Other observations

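Peaks outside the windows of the 10 genes, up to 7500 bp beyond them, belong to no comparison above. Downstream of Eomes, H3K4me3 was called in both genotypes from 118395780 to 118398404 in WT and from 118395618 to 118398334 in Delta on chromosome 9, with H3K27me3 over part of it in both. Downstream of Lhx1, H3K4me3 was called from 84326025 to 84327595 in WT and from 84326268 to 84327434 in Delta on chromosome 11, with fold enrichments of 7.91 and 4.84, at the start of Aatf. Upstream of Cdx2, H3K4me3 was 798 bp long in WT and 1185 bp in Delta, within the long H3K27me3 peak of each genotype. Downstream of Cdx1, H3K27me3 was called over 5797 bp in WT against 5702 bp in Delta. H3K4me3 was called there over 549 bp in WT only and H2AK119ub over 1049 bp in Delta only. The coding gene nearest to Cdx1 was Slc6a7, 4663 bp away. Pdlim4, 1 of the 4 genes with the same combination as Mixl1 and Cfc1, had H3K27me3 over 2827 bp in WT, H3K27ac over 219 bp in Delta, and H3K4me3 over 577 bp in WT and 1016 bp in Delta.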
